A study of Mus musculus with 6 samples.

Results

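Chemokines, interleukins and the colony-stimulating factors are secreted proteins through which cells call and instruct immune and stromal cells. The genes described here are the 77 of 29955 genes in the deposited table whose symbol is that of a numbered Ccl or Cxcl chemokine, Cx3cl1, a numbered interleukin with at most a single letter after its number, Lif, or Csf1 to Csf3. Of these, 73 encode secreted proteins and 4 are receptor genes that the spelling also takes in (Il7r, Il9r, Il21r and Il23r). They were measured by RNA-seq in mouse embryonic fibroblasts (MEFs) with and without Rnf40, in 3 Rnf40+/+ and 3 Rnf40-/- libraries, all from cells at passage 3. RNF40 is a ubiquitin ligase needed for monoubiquitination of histone H2B. The Rnf40-/- cells came from embryos homozygous for a floxed Rnf40 allele (exons 3 and 4 between loxP sites) that carried Rosa26-CreERT2, a tamoxifen-inducible recombinase made in all cells. They had received 250 nM 4-hydroxytamoxifen (4-OHT) for 5 days, followed by 3 days without it. The methods of the study name these embryos as the source of its MEFs and name no other. Whether the Rnf40+/+ cells received 4-OHT is not given in the sources used here, so genotype and treatment cannot be told apart. The sources also do not say whether the libraries of a genotype came from separate embryos or cultures, and the p-values then measure only the spread between these samples, which may be technical.

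CC and CXC chemokines are named after the spacing of their first cysteines and act on receptors that guide cell migration. CXC chemokines with a glutamate-leucine-arginine (ELR) motif before the cysteines attract neutrophils, and many others attract monocytes, lymphocytes or progenitor cells. Fibroblasts are a main source of CXCL12 and CSF1 in tissues, and senescent fibroblasts are known to release a mixture of chemokines, interleukins and growth factors.

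The deposited value of a gene, called a normalized count here, is its number of reads divided by a single size factor per library. The 6 libraries held 17053436 to 26344170 reads on genes, and 3 reads, used as the limit of detection, corresponded to a normalized count of 2.40 to 3.58. Rnf40 itself fell from 1190 ± 91.2 to 482 ± 39.9 (SD, n = 3; log2 fold change -1.30, limma adjusted p = 4.25e-07). The Rnf40+/+ replicate 3 library stood apart. Its chi-square statistic per gene was 28.3 and 25.6 against the other Rnf40+/+ libraries, which gave 7.85 between them. The sum over 14 macrophage marker genes was 13410 in that library, compared with 7122 and 7595 in the other Rnf40+/+ libraries and 4354 to 4958 in Rnf40-/-. The counts of genes called are given with and without it, and so are the values of single genes that it decides.

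Of the 77 genes, 17 were without a read in all 6 libraries, 29 had reads but too few to test, and 31 were tested. Log2 fold changes are differences of mean log2(normalized count + 1), Rnf40-/- minus Rnf40+/+, and a gene was called where limma gave it an adjusted p under 0.05 (Benjamini-Hochberg, over the 16378 genes tested in the whole table). By this rule 15 of the 31 rose in Rnf40-/- MEFs (48.4%) and 5 fell (16.1%), while 11 did not pass. Among all genes tested, 23.3% rose and 24.1% fell. The quasi-likelihood test of edgeR on the reads gave the same counts, 15 and 5, beside 23.5% and 24.1% of all genes. All Rnf40-/- values lay above all Rnf40+/+ values in 15 of the 31 genes and below them in 6, against 27.8% and 28.7% of all genes tested. The median log2 fold change was 0.39 over the 31 genes and -0.0035 over all genes tested. Il23r and Cxcl9, 2 of the 15, had enough reads to be tested only through the Rnf40-/- group, where they are high, and none of the 5 that fell was tested through the Rnf40+/+ group alone. With at least 10 reads asked of every library, 13 of 24 genes rose and 5 fell, beside 3458 and 3855 of 14912 genes in the whole table. Restricted to changes beyond 1 on the log2 scale, 9 genes rose and 1 fell, against 5.13% and 5.72% of all genes. Il23r and Cxcl9 are among these 9 too, so their place there was built in. Without Rnf40+/+ replicate 3, 17 genes rose and 5 fell at any size of change, beside 3817 and 3896 of 16712 genes in the whole table. Cxcl10 was new among the 17, and like Il23r and Cxcl9 it had enough reads only through the Rnf40-/- group. The count of genes that fell was 3 without Rnf40-/- replicate 3, when Lif and Il21r did not pass, beside 3556 of 16611 genes. The median was 0.18 without Rnf40+/+ replicate 1 and 0.18 without Rnf40-/- replicate 1. With either of these libraries left out, 34 genes were tested instead of 31, so these medians are not over the same genes. These libraries are bulk samples, so fewer cells of a type and less RNA per cell cannot be told apart.

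**Figure D1:**
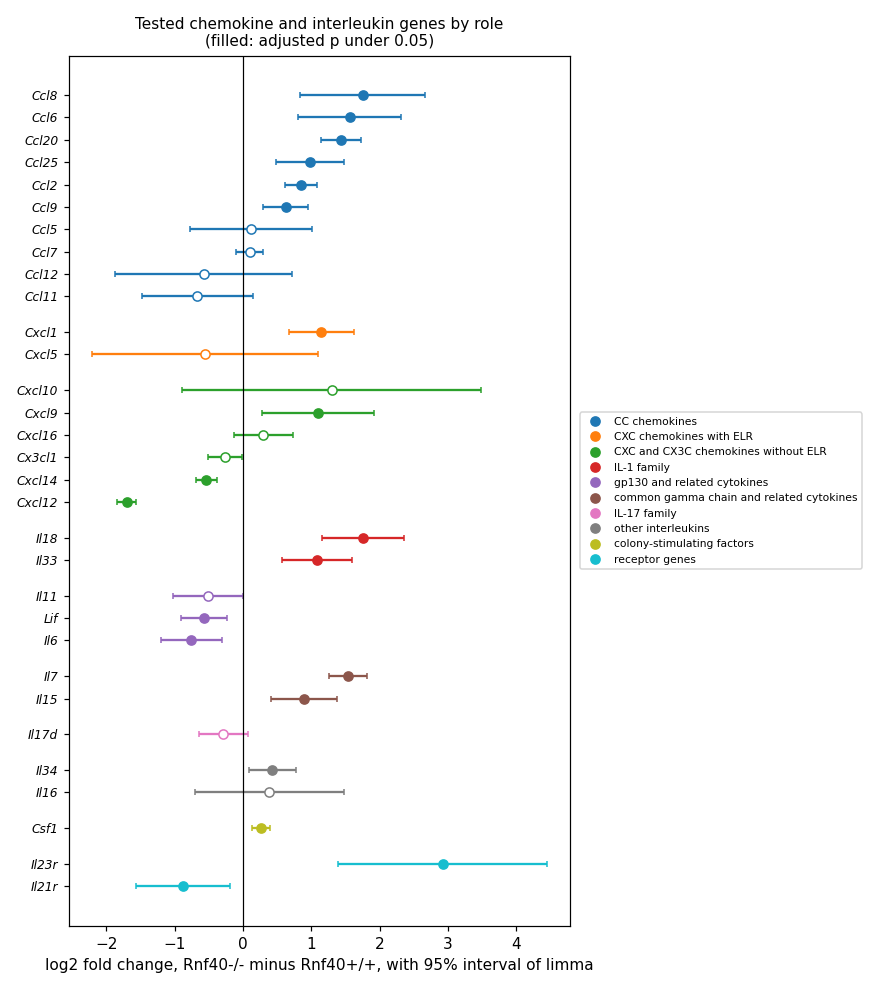
Log2 fold change (Rnf40-/- minus Rnf40+/+, horizontal axis) of the 31 tested genes with 95% confidence intervals from limma, with filled symbols where the adjusted p is under 0.05 and colours for the classes of genes. The points run from -1.70 for Cxcl12 to 2.93 for Il23r, and 15 filled symbols lie to the right of 0 and 5 to the left.

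The CC chemokines were the largest class tested, with 10 of the 31 genes, and also included the most called genes. Of 19 CC chemokine genes, 10 were tested, 6 rose, none fell and 4 did not pass. Among all genes tested, 23.3% rose and 24.1% fell, and these shares stand beside the counts of the other classes below as well. Ccl2, the main attractant of monocytes through CCR2, had normalized counts of 1376, 1552 and 1859 in Rnf40+/+ and of 3226, 2687 and 2698 in Rnf40-/- MEFs. Every Rnf40-/- value was above every Rnf40+/+ value, and the log2 fold change was 0.85 ± 0.11 (SE; limma adjusted p = 4.73e-05). Ccl20, the ligand of CCR6, had values of 109, 92.8 and 110 in Rnf40+/+ and of 305, 258 and 282 in Rnf40-/- MEFs. The groups were far apart, with a log2 fold change of 1.43 ± 0.13 (SE; limma adjusted p = 4.81e-06), the smallest adjusted p of the CC chemokines tested.

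Ccl6 and Ccl9, mouse CC chemokines that act on CCR1, also rose. Ccl6 had 11.9, 18.4 and 34.3 normalized counts in Rnf40+/+ and 67.3, 53.2 and 60.4 in Rnf40-/- libraries, so that the groups were separate although Rnf40+/+ replicate 3 was the highest of its group (log2 fold change 1.56 ± 0.34 SE, limma adjusted p = 0.00276). Ccl9 had 109, 109 and 145 against 186, 184 and 187, with hardly any spread within the Rnf40-/- group (log2 fold change 0.62 ± 0.15 SE, limma adjusted p = 0.00463). Ccl25, which attracts thymocytes and gut lymphocytes through CCR9, had 37.0, 38.8 and 31.9 against 71.4, 58.4 and 88.8 (log2 fold change 0.99 ± 0.23 SE, limma adjusted p = 0.00378). Its groups did not overlap either. Ccl8 had the widest spread of the CC chemokines that rose, with 27.5, 17.3 and 79.1 in Rnf40+/+ and 136, 124 and 92.5 in Rnf40-/- MEFs (log2 fold change 1.75 ± 0.42 SE, limma adjusted p = 0.00462). The highest Rnf40+/+ value, from replicate 3, lay close to the lowest Rnf40-/- value, and the log2 fold change was 2.36 without that replicate.

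The other 4 tested CC chemokines did not pass. Ccl7, a monocyte attractant encoded next to Ccl2, had 1705, 1661 and 2141 normalized counts in Rnf40+/+ and 1957, 1936 and 1978 in Rnf40-/- MEFs. The groups overlapped, and the log2 fold change of 0.10 had a 95% interval from -0.10 to 0.30 (limma adjusted p = 0.381); without Rnf40+/+ replicate 3 it was 0.22 with a limma adjusted p of 0.0147. Ccl11, an attractant of eosinophils, had a log2 fold change of -0.67 (limma adjusted p = 0.163), or -1.05 without Rnf40+/+ replicate 2 (limma adjusted p = 0.0397). The log2 fold changes of Ccl12 and Ccl5 were -0.57 and 0.12 (limma adjusted p = 0.456 and 0.829), with overlapping groups for both, and each changed sign when a single Rnf40+/+ library was left out (Ccl12 without replicate 3, Ccl5 without replicate 2).

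Ccl2, Ccl7, Ccl11, Ccl12 and Ccl8 lie beside each other on chromosome 11 of mm9, with Ccl2 starting at 81849073 and Ccl8 ending at 81930301. Within this stretch Ccl2 and Ccl8 rose, while Ccl7, Ccl11 and Ccl12 did not pass. The ratio of Ccl2 to Ccl7 normalized counts was 0.807, 0.934 and 0.868 in Rnf40+/+ and 1.65, 1.39 and 1.36 in Rnf40-/- libraries, a difference of 0.75 on the log2 scale. The ratio was below 1 in each Rnf40+/+ library and above 1 in each Rnf40-/- library. This pair was chosen after its values were seen, and 3 libraries against 3 cannot give a two-sided exact permutation p below 0.1. Ccl2 overlaps the antisense gene Gm17268, and Ccl6, Il7 and Il34, as well as Cxcl10, Cxcl16 and Il16, also overlap genes on the opposite strand. The kit was strand-specific, but whether the counting used strand is not given in the sources used here, so a part of these reads could belong to the partner gene.

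**Figure D2:**
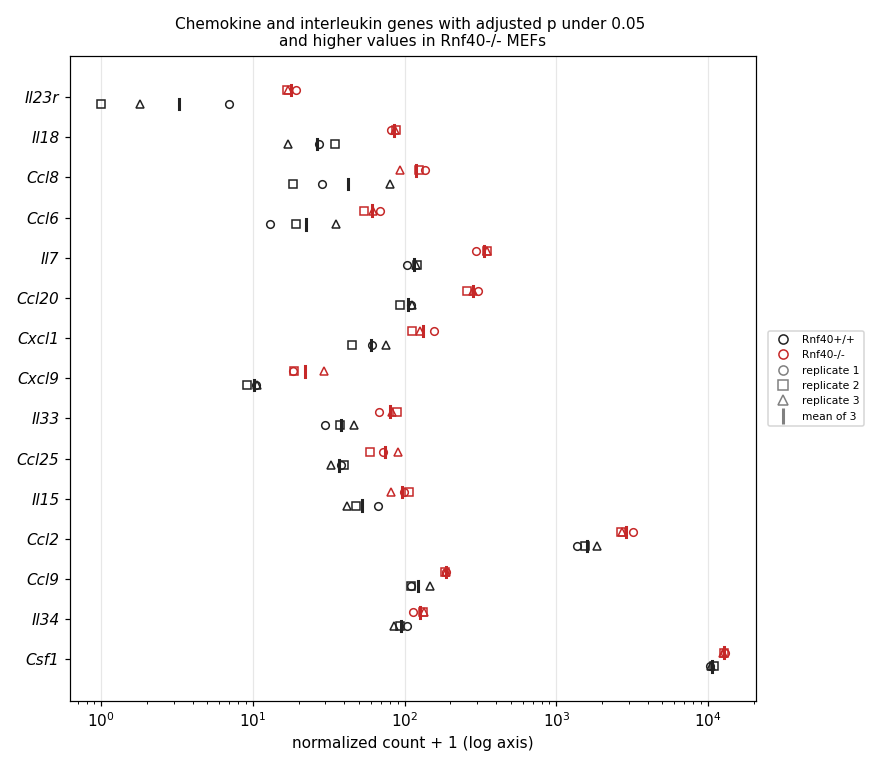
Normalized count + 1 (log scale) in each of the 6 libraries for the 15 genes that rose in Rnf40-/- MEFs, with the marker shape giving the replicate and the bar the mean of 3. In each of the 15 genes the Rnf40-/- values lie above the Rnf40+/+ values.

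Among the CXC chemokines with an ELR motif, Cxcl1, a neutrophil attractant that acts on CXCR2, rose. Its normalized counts were 59.7, 43.8 and 74.3 in Rnf40+/+ and 156, 112 and 125 in Rnf40-/- MEFs, with no overlap (log2 fold change 1.15 ± 0.22 SE, limma adjusted p = 0.00107). Cxcl5, the other tested gene of this class, had 11.9, 14.3 and 76.7 against 36.7, 4.17 and 23.6. Its values were spread so widely in both groups that the 95% interval of its log2 fold change ran from -2.21 to 1.10 (limma adjusted p = 0.572), and its sign turned when Rnf40+/+ replicate 3 or Rnf40-/- replicate 2 was left out. Cxcl2, Cxcl3 and Cxcl15 had too few reads to test, with 2 reads in Rnf40+/+ and 11 in Rnf40-/- libraries together for Cxcl2, and 9 and 22 for Cxcl15.

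Of the 9 chemokines without the motif, 6 were tested, 1 rose, 2 fell and 3 did not pass, beside 23.3% higher and 24.1% lower among all genes tested. Cxcl12 encodes the ligand of CXCR4 that holds haematopoietic and other progenitor cells in place. Its normalized counts were 16771, 16673 and 16023 in Rnf40+/+ and 4715, 5309 and 5173 in Rnf40-/- libraries, so that 30.7% of the Rnf40+/+ mean was left. The spread within each genotype was small beside the gap, and the log2 fold change of -1.70 ± 0.07 (SE; limma adjusted p = 7.63e-09) was the strongest decrease among the 31 tested genes. Left-out libraries moved it only between -1.74 and -1.65. Cxcl14, a chemokine of fibroblasts and epithelia, fell by 0.53 on the log2 scale (SE 0.07, limma adjusted p = 6.52e-05), from 2200, 2299 and 2389 to 1703, 1521 and 1533, again with no overlap.

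Cxcl9, an interferon-induced ligand of CXCR3, had 9.55, 8.16 and 9.58 normalized counts in Rnf40+/+ and 17.3, 17.7 and 28.3 in Rnf40-/- MEFs. The groups were separate at these low levels, but each Rnf40+/+ library was under the read filter, so that inclusion itself rested on high Rnf40-/- values (log2 fold change 1.10 ± 0.37 SE, limma adjusted p = 0.0293). The call was lost when Rnf40+/+ replicate 2 or any Rnf40-/- library was left out, with limma adjusted p-values up to 0.137. Cxcl10, from the same interferon-induced group, had 8.36, 0 and 40.7 against 22.4, 11.5 and 18.9. All Rnf40-/- values lay within the Rnf40+/+ range, and the fitted log2 fold change of 1.30 (limma adjusted p = 0.312) became -0.14 without Rnf40+/+ replicate 2 and 2.56 without replicate 3 (limma adjusted p = 0.0162). Cx3cl1, which exists as a membrane-bound and a shed chemokine, had 276, 266 and 264 against 244, 228 and 202. Its groups did not overlap, but the log2 fold change of -0.26 did not pass (limma adjusted p = 0.077). Cxcl16 had a log2 fold change of 0.30 (limma adjusted p = 0.239), and 0.48 without Rnf40+/+ replicate 3 (limma adjusted p = 0.0483).

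The IL-1 family genes with enough reads, Il18 and Il33, both rose. Il18, a precursor cleaved by caspase-1, had 26.3, 33.7 and 16.0 normalized counts in Rnf40+/+ and 80.6, 86.6 and 85.0 in Rnf40-/- MEFs, far above (log2 fold change 1.75 ± 0.27 SE, limma adjusted p = 0.000261). Il33, a nuclear cytokine released from damaged cells, had 28.7, 36.7 and 45.5 against 66.3, 87.7 and 82.1. The groups were again separate, with a log2 fold change of 1.08 ± 0.23 (SE; limma adjusted p = 0.00246). Il1a and Il1b, the classical members, were barely read: Il1a had 9 reads in the Rnf40+/+ and 5 in the Rnf40-/- libraries together, and Il1b had 2 and 0.

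Il7 and Il15 encode growth factors of lymphocytes and natural killer cells made by stromal cells. Il7 had 103, 120 and 117 normalized counts in Rnf40+/+ and 296, 351 and 347 in Rnf40-/- MEFs. The lowest Rnf40-/- value was well above the highest Rnf40+/+ value, and the log2 fold change was 1.54 ± 0.13 (SE; limma adjusted p = 2.1e-06). Il15 had 65.7, 46.9 and 40.7 against 97.9, 105 and 80.3, a smaller gap with no overlap (log2 fold change 0.89 ± 0.22 SE, limma adjusted p = 0.00562). The remaining 5 genes of this group were not tested, among them Il2, Il4 and Il9 without a single read.

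Of the 3 tested cytokines that signal through gp130, Il6 and Lif fell and Il11 did not pass. Il6, which drives the acute-phase response, had 127, 177 and 193 normalized counts in Rnf40+/+ and 115, 103 and 74.6 in Rnf40-/- MEFs. The groups were separate by a narrow margin (log2 fold change -0.76 ± 0.20 SE, limma adjusted p = 0.00916). Lif, leukaemia inhibitory factor, had 512, 507 and 409 against 412, 304 and 260. The lowest Rnf40+/+ and the highest Rnf40-/- value crossed, the log2 fold change was -0.57 ± 0.16 (SE; limma adjusted p = 0.00977), and the limma adjusted p was 0.0507 without Rnf40+/+ replicate 2 and 0.0505 without Rnf40-/- replicate 3. Il11 had 257, 140 and 121 against 109, 115 and 118. The Rnf40-/- values lay just below the lower Rnf40+/+ values, and the log2 fold change of -0.51 had a limma adjusted p of 0.0914, which was 0.0119 without Rnf40+/+ replicate 3.

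**Figure D3:**
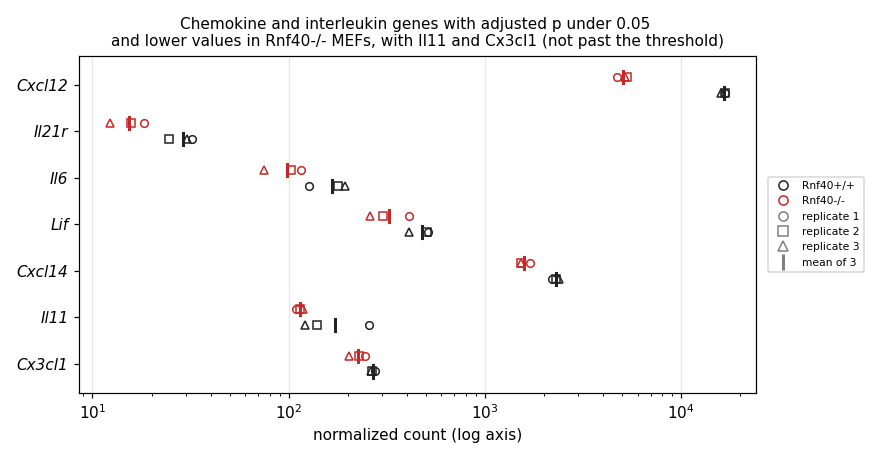
Normalized counts (log scale) in each library for the 5 genes that fell and for Il11 and Cx3cl1, which did not pass. The marker shape gives the replicate and the bar the mean of 3. Cxcl12 keeps 30.7% of its Rnf40+/+ mean, and the Lif values of the genotypes cross.

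Csf1 and Il34 encode the ligands of the macrophage growth factor receptor CSF1R. Csf1 had 10327, 10976 and 10496 normalized counts in Rnf40+/+ and 12894, 12845 and 12527 in Rnf40-/- MEFs. This was a small but complete separation, with a log2 fold change of 0.27 ± 0.06 (SE; limma adjusted p = 0.00361). Il34 had 103, 92.8 and 83.8 against 113, 131 and 132 (log2 fold change 0.43 ± 0.16 SE, limma adjusted p = 0.0422), and its call was lost in 5 of the 6 fits that left out a library, with limma adjusted p-values up to 0.124. Csf3 was not tested, with 15 reads in Rnf40+/+ and 7 in Rnf40-/- libraries, and Csf2 had no read. Il16 and Il17d did not pass (log2 fold changes 0.39 and -0.29, limma adjusted p = 0.555 and 0.178).

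The receptor genes among the 77 differed from each other. Il23r had 5.97, 0 and 0.799 normalized counts in Rnf40+/+ and 18.4, 15.7 and 16.1 in Rnf40-/- libraries (log2 fold change 2.93 ± 0.70 SE, limma adjusted p = 0.00458). It had enough reads to be tested only through the Rnf40-/- group, so a difference was built into its inclusion. Il21r had 32.2, 24.5 and 30.3 against 18.4, 15.7 and 12.3 (log2 fold change -0.88 ± 0.31 SE, limma adjusted p = 0.0364). Its groups did not overlap, but the call held in only 2 of the 6 fits with a library left out, and the highest limma adjusted p was 0.113. Il7r was not tested, with 43 reads in the Rnf40+/+ libraries, 27 of them in replicate 3, and 13 in the Rnf40-/- libraries. Without Rnf40+/+ replicate 1 it entered the test and passed (log2 fold change -1.64, limma adjusted p = 0.0291).

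The 46 untested genes had few or no reads, with at most 33 in a library, reached by Ccl3. Ccl3 and Ccl4, macrophage inflammatory proteins that are mostly made by myeloid cells, had 45 and 34 reads in Rnf40+/+ and 22 and 16 in Rnf40-/- libraries together. Of the 45 Ccl3 reads 33 came from Rnf40+/+ replicate 3, which left 12 in the other Rnf40+/+ libraries. Cxcl13, the B cell attractant, had 16 reads in Rnf40+/+ and 0 in Rnf40-/- libraries. Against a floor of 3 reads over the Rnf40-/- group it was at least 5.21-fold lower there, and Il17c and Il5, with 11 and 9 reads against 0, were at least 3.58-fold and 2.93-fold lower. Without Rnf40+/+ replicate 3 each of these latter genes had 3 reads, no more than the floor, which allows no bound. In the other direction, Il25 had 3 reads against 16 and Il20 had 0 against 4. Against the floor Il20 was at least 1.37-fold higher, but 3 of its 4 reads came from Rnf40-/- replicate 1. Without that library it had fewer reads than the floor, which allows no bound. Ccl28 had 33 reads against 14, Ccl17 had 9 against 19, Cxcl17 had 3 against 12 and Il19 had 9 against 11. Cxcl11 had 11 against 4, and 10 of the 11 came from Rnf40+/+ replicate 3, so that it had 1 against 4 without that library. The remaining genes with reads (Cxcl3, Ccl19, Ccl24, Il9r, Il12b, Il13, Il17b, Il17f, Il21, Il23a and Il27) had between 0 and 7 reads in either group. Ccl19 shares 96.4% of its 50-base transcript stretches with 2 near-identical genes, so its reads are uncertain. The 17 genes without a read were Ccl1, Ccl22, Ccl26, Csf2, Il2, Il3, Il4, Il9, Il10, Il12a, Il17a, Il22, Il24, Il28a, Il28b, Il31 and Il1e, mostly cytokines of lymphoid and myeloid cells.

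**Figure D4:**
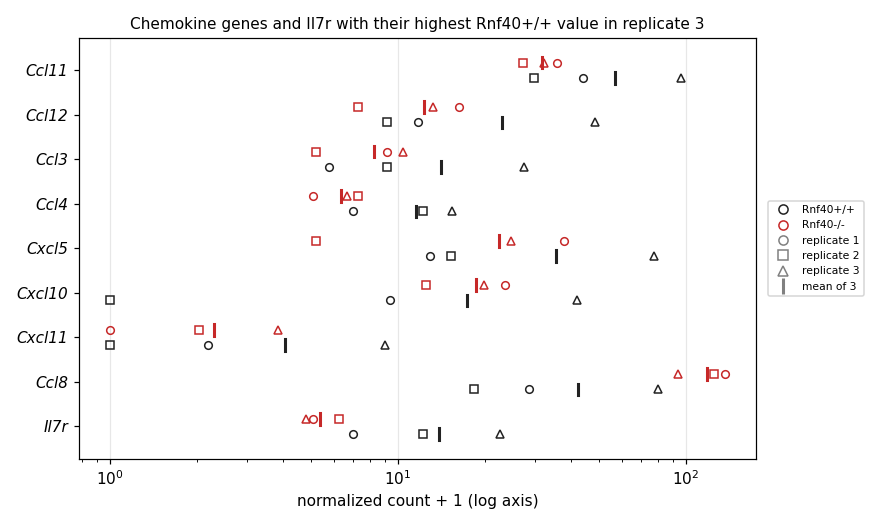
Normalized count + 1 (log scale) in each library for 9 genes, chosen after their values were seen because their highest Rnf40+/+ value came from replicate 3 (triangle). Ccl8 rose. The other 8 did not pass or were not tested, and in each of them the triangle of Rnf40+/+ lies above every Rnf40-/- value.

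Levels of different genes were compared as normalized counts per kilobase of annotated exon. Over the Rnf40+/+ libraries the highest means were 2292 per kb for Ccl7, 2017 for Cxcl12, 2014 for Csf1, 1402 for Ccl2 and 1259 for Cxcl14. In Rnf40-/- MEFs the same 5 genes led, with 2522 per kb for Ccl2, 2443 for Ccl7, 2424 for Csf1, 870 for Cxcl14 and 620 for Cxcl12. The range of Csf1 over the Rnf40+/+ libraries overlapped those of Ccl7 and Cxcl12, and the ranges of Ccl2 and Cxcl14 overlapped. In Rnf40-/- libraries those of Ccl2, Ccl7 and Csf1 overlapped, so the order of these neighbours is not resolved. Among 28 secreted genes ranked, Cxcl12 was at rank 2 or 3 in each Rnf40+/+ library and at rank 5, below Cxcl14, in each Rnf40-/- library.

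Receptors for these ligands were followed in a list of 45 genes, of which 31 were tested, 5 rose, 7 fell and 19 did not pass. Among all genes tested, 23.3% were higher and 24.1% lower. Cxcr7, the second receptor of CXCL12, which takes up the ligand, fell together with it from 456 ± 34.0 to 160 ± 25.5 normalized counts (SD, n = 3; log2 fold change -1.52, limma adjusted p = 2.96e-06). Cxcr4, its signalling receptor, was at 27.7 ± 10.8 and 25.4 ± 7.92 (SD, n = 3), with a log2 fold change of -0.08 that did not pass (limma adjusted p = 0.88). Cx3cr1, the receptor of CX3CL1, fell from 84.3 ± 16.8 to 17.9 ± 7.55 (SD, n = 3; log2 fold change -2.24, limma adjusted p = 0.000139).

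Il1rl1, the receptor of IL-33, fell from 3490 ± 216 to 1623 ± 110 normalized counts (SD, n = 3; log2 fold change -1.10, limma adjusted p = 3.09e-07), while its ligand gene rose. Il18rap, a subunit of the IL-18 receptor, rose from 110 ± 24.7 to 188 ± 27.0 (SD, n = 3; log2 fold change 0.77, limma adjusted p = 0.00401), as did Il18. Cxcr2, the receptor of CXCL1, had a log2 fold change of 0.63 (limma adjusted p = 0.0145), which did not pass without Rnf40+/+ replicate 2 or Rnf40-/- replicate 1 (limma adjusted p = 0.0618 and 0.0846). For the gp130 ligands, Lifr rose (log2 fold change 0.54, limma adjusted p = 0.00481) and Il11ra1 fell (log2 fold change -0.59, limma adjusted p = 0.00501), while the shared subunit Il6st had a log2 fold change of 0.15 (limma adjusted p = 0.1). Without Rnf40+/+ replicate 3 the value for Il6st was 0.19 (limma adjusted p = 0.0474).

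**Figure D5:**
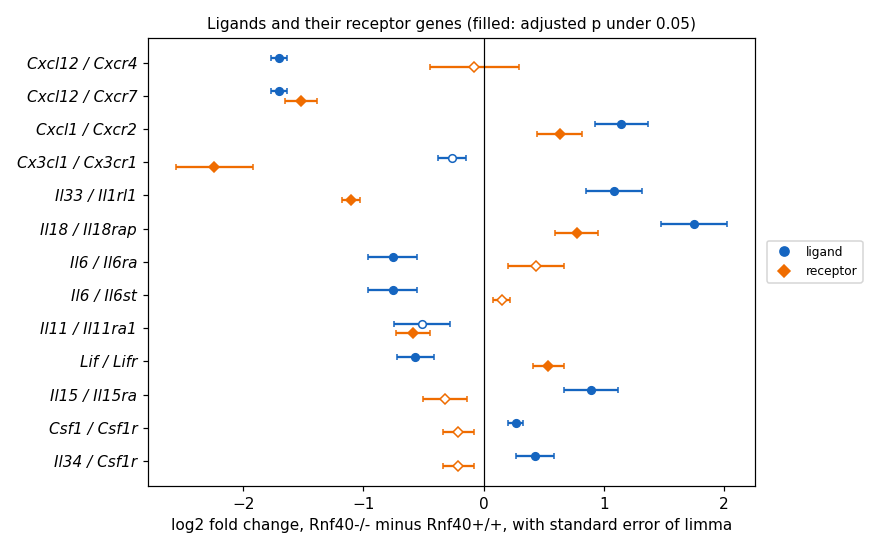
Log2 fold change with its standard error for ligand genes beside the genes of their receptors. Cxcl12 and Cxcr7 both lie below -1, and Il33 lies above 1 while its receptor gene Il1rl1 lies below -1.

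Other secreted ligands and antagonists of the same pathways, 18 genes that the spelling does not take in, were split, with 14 tested, 3 higher, 3 lower and 8 not past the threshold. The shares over all genes tested were 23.3% higher and 24.1% lower. Ppbp, a further neutrophil attractant with the ELR motif, rose from 25.6 ± 6.24 to 117 ± 27.5 normalized counts (SD, n = 3; log2 fold change 2.14, limma adjusted p = 3.14e-05). Kitl, the ligand of KIT, rose from 420 ± 38.3 to 1341 ± 52.7 (SD, n = 3; log2 fold change 1.67, limma adjusted p = 5.22e-08). Il1rn, the antagonist of the IL-1 receptor, fell from 914 ± 28.3 to 556 ± 74.8 (SD, n = 3; log2 fold change -0.72, limma adjusted p = 9.98e-05).

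Genes of 22 senescence-associated cytokines among the 77 did not move together. Of the 15 tested, 8 rose, 3 fell and 4 did not pass, with a median log2 fold change of 0.27. Ccl2, Ccl20, Cxcl1 and Il15 were among those that rose, and Il6, Cxcl12 and Lif were those that fell. Their summed normalized count was 31505 to 32086 in Rnf40+/+ and 23898 to 24571 in Rnf40-/- libraries. Cxcl12 and Csf1 weigh most in this sum. The mean of Cxcl12 fell from 16489 to 5066, a larger drop than that of the sum. The mean of Csf1 rose from 10599 to 12755. Of 20 further genes tied to senescence, all tested, 4 rose, 11 fell and 5 did not pass. For both lists, the shares over all genes tested were 23.3% higher and 24.1% lower. The list of 20 was not sorted by how each gene moves in senescent cells. Its counts therefore do not describe movement towards or away from senescence. Hmgb2 fell (log2 fold change -2.03, limma adjusted p = 5.89e-07), as did the growth factor binding protein gene Igfbp4 (-1.44, limma adjusted p = 0.000137), while the matrix metalloproteinase genes Mmp13 and Mmp10 rose (1.47 and 1.35, limma adjusted p = 0.0024 and 6.09e-06). The cell cycle inhibitor genes Cdkn1a and Cdkn2a, named after their values were seen, fell (log2 fold change -0.66 and -0.99, limma adjusted p = 8.2e-06 and 4.91e-06).

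NF-kB and the interferon-activated factors are known inducers of many of these genes. Of 22 genes of the NF-kB pathway, 21 were tested, 4 rose, 7 fell and 10 did not pass, beside 23.3% higher and 24.1% lower among all genes tested. Relb fell from 428 ± 89.7 to 226 ± 8.52 normalized counts (SD, n = 3; log2 fold change -0.90, limma adjusted p = 0.000213), and Nfkb2, its partner, from 972 ± 81.5 to 613 ± 55.6 (SD, n = 3; log2 fold change -0.67, limma adjusted p = 0.000102). Vcam1, an adhesion molecule gene induced by NF-kB, fell too (log2 fold change -0.74, limma adjusted p = 6.39e-06). The 4 that rose, named after their values were seen, were Icam1, a further adhesion molecule gene induced by NF-kB (log2 fold change 0.56, limma adjusted p = 0.0106), the kinase genes Chuk and Ikbkb (0.54 and 0.51) and the adaptor gene Traf6 (0.35). Of 14 regulators of the interferon response, 13 were tested, 3 rose, 4 fell and 6 did not pass, beside the same shares of all genes. Irf9 fell (log2 fold change -0.62, limma adjusted p = 0.000992), whereas the kinase genes Jak1 and Jak2 rose (0.88 and 0.56, limma adjusted p = 1.07e-06 and 7.59e-05).

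The start-site regions of 3 genes are shown because they carry a sequence of the kind NF-kB binds while the genes moved in opposite directions: Cxcl1 and Ccl20 rose and Il6 fell. They are RefSeq windows of GRCm38.p6 from 250 bases before to 50 after the start, printed 5′ to 3′ along the gene, with capitals marking matches to GGNNTTTCC (NF-kB type) or TGANTCA (AP-1 type) on either strand.
Cxcl1, chr5:90890995-90891294, + strand: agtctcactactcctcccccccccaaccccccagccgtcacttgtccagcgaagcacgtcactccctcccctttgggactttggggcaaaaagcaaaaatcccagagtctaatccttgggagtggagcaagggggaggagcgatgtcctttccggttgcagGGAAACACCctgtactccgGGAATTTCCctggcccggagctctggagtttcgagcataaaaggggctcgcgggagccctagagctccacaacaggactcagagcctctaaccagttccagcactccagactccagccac
Ccl20, chr1:83116516-83116815, + strand: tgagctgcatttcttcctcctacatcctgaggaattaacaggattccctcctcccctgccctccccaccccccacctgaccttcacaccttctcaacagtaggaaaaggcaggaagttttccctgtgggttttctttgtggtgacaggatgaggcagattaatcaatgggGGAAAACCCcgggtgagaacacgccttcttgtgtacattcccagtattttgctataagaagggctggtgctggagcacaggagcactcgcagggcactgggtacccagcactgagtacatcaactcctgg
Il6, chr5:30012864-30013163, + strand: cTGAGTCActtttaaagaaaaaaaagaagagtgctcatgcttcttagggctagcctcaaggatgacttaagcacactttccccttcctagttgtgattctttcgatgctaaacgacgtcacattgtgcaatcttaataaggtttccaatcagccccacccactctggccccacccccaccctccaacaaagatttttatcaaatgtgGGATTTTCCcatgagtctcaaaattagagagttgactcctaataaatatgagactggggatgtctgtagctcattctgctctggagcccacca
The first base of the NF-kB type match lies 80 bases before the start in Ccl20, 89 and 70 bases before it in Cxcl1, and 43 bases before it in Il6, where the AP-1 type match begins 249 bases before the start.

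Windows were at hand for 53 of the 77 genes and for 22 of the 31 tested. The NF-kB type motif was in the windows of 15 of the 53 genes, against 6.62% of 27025 genes with a window. It was in 6 of the 11 genes that rose (Ccl20, Ccl9, Csf1, Cxcl1, Cxcl9 and Il23r), in 1 of the 5 that fell (Il6) and in 2 of the 6 that did not pass (Cxcl10 and Il16). Of these 6 that rose, Cxcl9 and Il23r were tested only through the Rnf40-/- group, so their place among them was built in. Of the genes that fell, Cxcl12 and Il21r had no match to any of the 3 motifs. Cxcl1, Cxcl2 and Cxcl3, which all hold it, are neighbouring related genes on chromosome 5 and so are not independent cases. The interferon type motif GAAANNGAA was in 9 of the 53, against 9.76% of all genes, and of the tested genes with a window only Cxcl9, Cxcl10 and Cxcl14 held it. The AP-1 type motif TGANTCA was in 11 of the 53, against 8.97%, and 2 of the 11 genes that rose, 2 of the 5 that fell and 3 of the 6 that did not pass had it. The NF-kB and interferon type motifs used here are shortened forms of the usual ones. With a further G in front, the NF-kB type was in 10 of the 53 windows (1.89% of all genes), among them 5 of the 11 genes that rose, 1 of the 5 that fell and 1 of the 6 that did not pass. Il23r was among these 5 that rose. With a further A at its end, the interferon type was in 5 of the 53 (3.99% of all genes). No matches of different motifs overlapped in these windows, and a match is a description of the sequence only.

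Marker genes of other cells that a MEF culture can hold moved with genotype as well. For the counts that follow, the shares over all genes tested were 23.3% higher and 24.1% lower. Of 14 macrophage markers, all tested, 2 rose (Ptprc and Cd14), 7 fell and 5 did not pass. Lyz2 had 3945, 4557 and 7440 normalized counts in Rnf40+/+ and 2318, 2093 and 2383 in Rnf40-/- MEFs (log2 fold change -1.18, limma adjusted p = 0.000167). C1qa had 386, 395 and 1211 against 144, 140 and 190 (log2 fold change -1.86, limma adjusted p = 0.000793). Rnf40+/+ replicate 3 was the highest for both, and without it the log2 fold changes of Lyz2 and C1qa were -0.91 and -1.31. Macrophages are known to make Ccl3, Ccl4, Ccl6, Ccl8, Ccl9, Ccl12 and Il18, and Cx3cr1 is a macrophage gene. The 9 fibroblast markers were present in every library, with sums of 354316 to 413828 in Rnf40+/+ and 185357 to 199435 in Rnf40-/- libraries, and 7 of them fell while none rose. Of 6 endothelial markers, 5 were tested, 3 rose and 1 fell, with sums of 146 to 282 and 234 to 333. Pecam1 and Cdh5, 2 of the 3 that rose, were tested only through the Rnf40-/- group. The 6 neutrophil and mast cell markers in the table had sums of 20.4 to 22.7 in Rnf40+/+ and 42.5 to 66.3 in Rnf40-/- libraries, with 3 tested and 2 higher (S100a8 and Mcpt4), both tested only through the Rnf40-/- group. The 7 lymphocyte markers had sums of 8.78 to 11.9 and 8.50 to 13.3, with 3 of them at 0 reads, and no epithelial marker was called. The part of these cells in the differences of chemokine and interleukin genes was not tested.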

How the data were processed

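RNA-seq libraries of 3 Rnf40+/+ and 3 Rnf40-/- MEF samples were used, grouped by their labels. The authors aligned the reads to mouse transcripts of the mm9 build and scaled them with DESeq; the submitters' processing notes name Bowtie2 (version 2.1.0) and DESeq (version 1.14.0), and the counting tool is not given in the sources used here. As deposited, each signal equals a gene's reads over the size factor of its library (0.837 to 1.25). Dividing by the step of 1 read made 100% of values whole in each library (within 0.01), and these reads were used where counts are given.

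The design named edgeR for counts; as the deposited values are normalized, limma (version 3.58.1; lmFit, eBayes with trend) was fitted to log2(normalized count + 1) with genotype as the only term, over genes kept by filterByExpr of edgeR (version 4.0.16) on the reads. The added 1 understates fold changes of low genes. Simulated data with known changes were used to test the fit. Alternatives were pseudocounts 0.1 and 10, other filters, other scalings, edgeR, DESeq2 (version 1.42.0), a replicate block and each library left out. R 4.3.3 and Python 3.11.15 were used.

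Genes named are those called among the 77, tested genes that did not pass, and members of gene lists. The members, the lists, their classes and the motifs were chosen with earlier results of these data known. ELR classes and cell markers came from general knowledge. Positions and exon lengths are from GENCODE vM1 on mm9. In the tested genes with a single annotated entry, at most 1.89% of 50-base stretches of protein-coding transcripts recurred in such transcripts of another gene. Ccl25 had 2 entries and was not checked, and non-coding genes were not compared.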

Additional observations from a re-analysis of the deposited data

How the results depend on the processing

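The numbers of genes that rose and fell, 15 and 5, ran from 13 to 17 and from 3 to 5 when a library was left out. In the whole table, 3051 to 3817 genes rose and 3342 to 3896 fell in those fits, of 16611 to 16858 tested. The median log2 fold change ran from 0.18 to 0.48, over 31 to 34 tested genes. With the other 10 settings the counts were 13 to 15 and 5 to 6. In the whole table, 3458 to 4021 genes rose and 3726 to 4196 fell in these settings, of 14912 to 22545 tested. Of 302 values of single chemokine and interleukin genes, 293 kept direction and side of the threshold, 7 no longer passed, 2 passed newly and 0 changed sign. In the 6 fits with a library left out, 161 of 186 values kept both, 15 no longer passed, 5 passed newly and 5 changed sign. The changes of sign were Ccl5 (-0.28) and Cxcl10 (-0.14) without Rnf40+/+ replicate 2, Ccl12 (0.16) and Cxcl5 (0.26) without Rnf40+/+ replicate 3, and Cxcl5 (0.29) without Rnf40-/- replicate 2. Over the 6 fits Ccl5 ran from -0.28 to 0.35, Cxcl10 from -0.14 to 2.56, Ccl12 from -1.03 to 0.16, Cxcl5 from -1.14 to 0.29 and Cxcr4 from -0.43 to 0.15. Cxcr4 also changed sign, to 0.056 and 0.15 without Rnf40+/+ replicates 2 and 3 and to 0.13 without Rnf40-/- replicate 1. The DESeq2 Wald test lost Cxcl9, Il21r and Il34 (adjusted p = 0.0691, 0.101 and 0.0826) and gained Il11 (adjusted p = 0.0468). Without a filter, 60 of the 77 genes entered and Cxcl13, Il5 and Il25 passed (limma adjusted p = 0.00157, 0.0247 and 0.025), while Il21r and Il34 did not. The cause of these changes was not tested.

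Libraries with the same replicate number did not deviate together (r = 0.0118, 0.0174 and 0.0212), so the numbers were not taken to pair them. With a replicate block 14 genes rose and 5 fell, beside 4021 and 4196 of 16378 genes in the whole table. The median stayed at 0.39, Il11 passed (limma adjusted p = 0.0425) and Il21r and Il34 did not (limma adjusted p = 0.0548 and 0.0583). Depth limits the 46 untested genes, which had at most 33 reads in a library.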
